A study of Macaca mulatta with 12 samples.

Results

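Progesterone added to estrogen was examined in the dorsal raphe of female rhesus monkeys by setting 3 arrays of animals given estrogen plus progesterone against 3 arrays of animals given estrogen, 6 of the 12 arrays of the study. The arrays were chosen by their titles. The 26383 brighter of the 52865 probe sets of the Affymetrix rhesus array were tested, and 64 gene lists were described. The 4 groups of 3 monkeys each carried Silastic capsules under the skin for 1 month, filled with crystalline estrogen and progesterone, with estrogen, with progesterone, or without hormone (placebo). Each array stands for 1 monkey. OVX, most likely for ovariectomized, stands in the titles of the placebo arrays, and the labels do not say whether the other groups were operated too. The labels give no age and no dose, and name a block of tissue around the dorsal raphe as the source. The progesterone arrays carry the code EP in their titles and P in their descriptions and were taken as progesterone alone.

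The dorsal raphe holds a large share of the serotonin neurons that project to the forebrain. Estrogen acts through the nuclear receptors encoded by ESR1 and ESR2, and progesterone through the nuclear receptor encoded by PGR, a gene that estrogen itself induces in many target tissues. Progesterone given on top of estrogen can therefore meet more of its receptor than progesterone given alone, and in the uterus it opposes part of what estrogen does. In bulk tissue, fewer cells of a type and less RNA per cell cannot be told apart, and this holds for every difference below.

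The 6 arrays had median intensities of 93.6, 78.5 and 78.6 with estrogen plus progesterone and 92.8, 75.8 and 71.1 with estrogen. Rank correlations among the 15 pairs lay between 0.919 and 0.957. The first array of each group stood apart: on the first principal component of all 12 arrays (23.5% of the variance) they lay at -44.0 and -44.9, and the other 4 between 19.9 and 25.2. For the EF1A control transcript the 3′ signal exceeded the 5′ signal by 0.65 and 0.74 (log2) in these arrays, against -0.08 to 0.22 in the other 4. The first placebo array also lay far out on this component, at -51.6, with an EF1A value of -0.035. The 3 progesterone arrays had EF1A values of -0.37, -0.31 and -0.33, lower than in any other array. On the second component (17.2% of the variance) they lay at -14.1, -46.3 and -54.5, and all other arrays between 0.50 and 20.4. The serotonin neuron markers TPH2, FEV, SLC18A2, GATA2 and GATA3 were bright enough to be tested in a tissue labelled dorsal raphe. HTR1A, ESR1, FKBP5 and PGR were too dim, and no probe set carried the name SLC6A4, DDC, MAOB or HTR2C. Cerebellar markers were also detected, highest in the second array of both groups.

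No probe set of the 26383 tested differed between estrogen plus progesterone and estrogen after Benjamini-Hochberg adjustment in limma, the moderated linear model fitted to all 12 arrays (0% called, lowest adjusted p = 0.9999). At an unadjusted limma p under 0.05 there were 356 higher and 430 lower probe sets, 2.98% of those tested. These 786 were fewer than the 1319 expected at this limit if no probe set differed. The 3 combined arrays all lay above the 3 estrogen arrays for 1066 probe sets (4.04%) and all below for 1069 (4.05%), together 8.09%. A random order of 6 arrays separates 3 from 3 in this way with a probability of 0.1. A log2 difference over 1, or a 2-fold difference, was found for 76 probe sets upward and 46 downward. The log2 differences had a median of -0.00039 and an SD of 0.26, and the 95% confidence interval of a difference extended a median of 0.49 to each side, so the 3 animals per group limit the precision. With the replicate number as a block in the 6 arrays, limma again called 0 probe sets (lowest adjusted p = 0.479), with 1551 at an unadjusted p under 0.05. All genes below are therefore described by their arrays, their difference and its SE, and none of them passed the test.

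**Figure D1:**
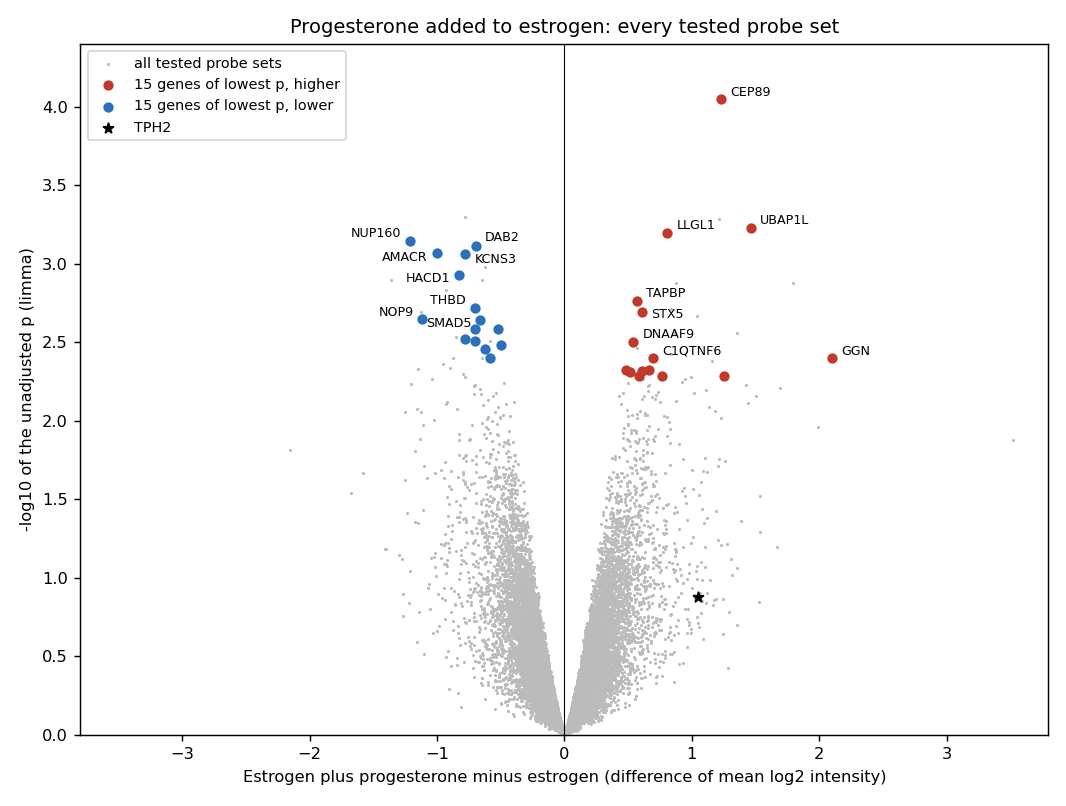
The log2 difference (estrogen plus progesterone minus estrogen, x axis) is plotted against -log10 of the unadjusted limma p (y axis) for the 26383 tested probe sets, with the 15 genes of lowest p in each direction in colour and TPH2 as a star. CEP89 has the lowest p at a difference of 1.23, and no point passed the adjusted threshold.

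Higher with estrogen plus progesterone, with the lowest p of all, was CEP89, which encodes a distal appendage protein of the centriole needed to build cilia. Its log2 intensity was 8.10, 8.19 and 7.82 with estrogen plus progesterone, against 6.64, 6.83 and 6.96 with estrogen. All 3 combined arrays stood above all 3 estrogen arrays, the gap between the groups was wider than the range within either, and the difference was 1.23 ± 0.21 (SE), or 2.34-fold. A second tested probe set of CEP89 read 8.20, 7.90 and 7.85 against 7.49, 6.85 and 7.54, again without overlap. UBAP1L, related to a ubiquitin-binding sorting protein, read 7.26, 7.01 and 7.93 with estrogen plus progesterone, against 6.42, 5.78 and 5.60 with estrogen (1.46 ± 0.31). LLGL1, a cytoplasmic scaffold of cell polarity, read 9.25, 8.83 and 9.36 against 8.57, 8.17 and 8.27 (0.81 ± 0.17). Of the 4 tested probe sets of LLGL1, 3 did not overlap between the groups, and the brightest went the other way with overlap (-0.15).

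STX5, a syntaxin of transport between the endoplasmic reticulum and the Golgi, read 8.80, 8.85 and 8.79 with estrogen plus progesterone, against 7.92, 8.33 and 8.37 with estrogen (0.61 ± 0.15). The 3 combined arrays lay close together, and the first estrogen array was the lowest. TAPBP, tapasin, which loads peptides on MHC class I molecules, read 7.41, 7.43 and 7.40 against 6.89, 6.72 and 6.92 (0.57 ± 0.14), while a second and brighter probe set differed by 0.05. DNAAF9, a dynein axonemal assembly factor, read 8.53, 8.42 and 8.45 against 7.99, 7.90 and 7.88 (0.54 ± 0.15). Other genes of this group encode a phospholipase C of receptor tyrosine kinase signalling, PLCG1 (0.48), an intraflagellar transport protein, IFT27 (0.67), the tuberous sclerosis protein that restrains mTOR, TSC2 (0.51), a ubiquitin-conjugating enzyme, UBE2L3 (0.59), and a semaphorin receptor, PLXNA3 (0.77).

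TNXB, tenascin X of the extracellular matrix, read 7.17, 7.34 and 7.37 with estrogen plus progesterone, against 5.79, 6.22 and 6.11 with estrogen (1.25 ± 0.36). Its second tested probe set also did not overlap, at 8.90, 8.51 and 8.75 against 8.28, 7.86 and 7.79. GGN, gametogenetin, best known from the testis, had the largest difference among the genes whose groups did not overlap, 2.10 ± 0.59, from 8.52, 7.21 and 8.76 against 6.30, 5.38 and 6.50. Its second combined array was the lowest of that group, and a second probe set differed by 0.30 with overlap.

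Lower with estrogen plus progesterone, at the lowest p in that direction, was NUP160, a scaffold nucleoporin of the nuclear pore. It read 5.89, 6.32 and 5.61 with estrogen plus progesterone, against 7.62, 6.73 and 7.10 with estrogen, a log2 difference of -1.21 ± 0.26 (0.433-fold). The groups did not overlap, and the narrowest gap lay between the second arrays. A second and brighter probe set of NUP160 differed by -0.23 with overlap. DAB2, an adaptor that brings receptors into clathrin-coated pits, read 7.56, 7.43 and 7.62 against 8.25, 8.17 and 8.27 (-0.69 ± 0.15). AMACR, a racemase of branched fatty acid oxidation in peroxisomes, read 7.66, 8.12 and 7.77 against 8.58, 9.20 and 8.78 (-1.0003 ± 0.22).

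KCNS3, a modulatory subunit of voltage-gated potassium channels, read 6.69, 7.06 and 7.18 with estrogen plus progesterone, against 7.88, 7.50 and 7.88 with estrogen (-0.78 ± 0.17). HACD1, a dehydratase of very long chain fatty acid synthesis, read 6.20, 6.18 and 6.85 against 7.16, 7.20 and 7.34 (-0.82 ± 0.19), with the third combined array nearest to the estrogen arrays. THBD, thrombomodulin of the vessel wall, read 6.54, 6.72 and 6.55 against 7.63, 7.25 and 7.04 (-0.70 ± 0.18). The probe set of NOP9, a protein of ribosome assembly, read 7.47, 8.58 and 7.44 against 9.13, 8.72 and 8.97 (-1.11 ± 0.29), but the brightest of its 4 other tested probe sets was higher without overlap (0.22), so the probe sets of NOP9 disagreed.

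SMAD5, a transcription factor of bone morphogenetic protein signalling, was lower on several probe sets. The one of lowest p read 8.14, 8.43 and 8.32 with estrogen plus progesterone, against 8.89, 9.15 and 8.83 with estrogen (-0.66 ± 0.17). The brightest read 9.97, 9.63 and 9.64 against 10.34, 10.10 and 10.03. In all, 3 of its 6 tested probe sets did not overlap, all downward. TMEM64, a membrane protein that regulates a calcium pump, read 7.95, 7.94 and 7.96 against 8.19, 9.08 and 8.92 (-0.78 ± 0.21), and a second of its 3 probe sets did not overlap either. The remaining genes of this group were LNPK (-0.70), which shapes tubule junctions of the endoplasmic reticulum, BRCC3 (-0.52), a deubiquitinating enzyme, SF3B6 (-0.70), a splicing factor, GULP1 (-0.62), an engulfment adaptor, SH3RF1 (-0.58), a scaffold of JNK signalling, and ZC2HC1A (-0.50).

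**Figure D2:**
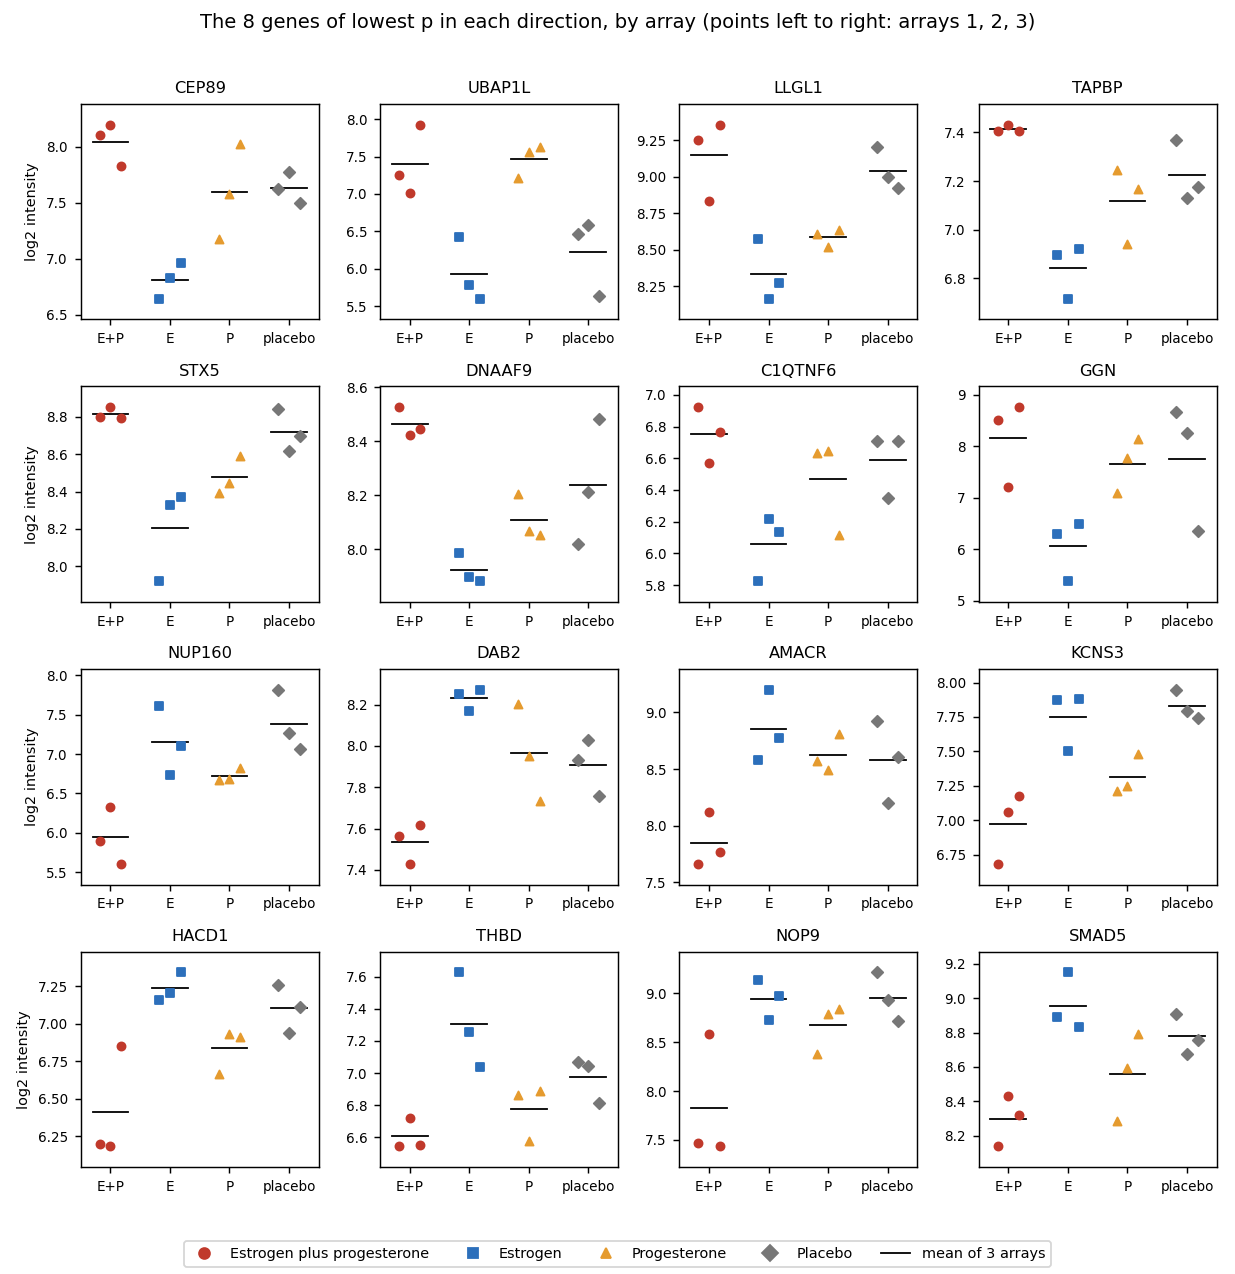
Log2 intensity (y axis) of the 8 genes of lowest p in each direction is shown for every array of estrogen plus progesterone (E+P), estrogen (E), progesterone (P) and placebo, with the mean of 3 arrays as a line. In CEP89 the combined arrays lie at 7.82 to 8.19 and the estrogen arrays at 6.64 to 6.96, and in NUP160 the combined arrays lie at 5.61 to 6.32 and the estrogen arrays at 6.73 to 7.62.

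The 15 genes of lowest p among those higher in all 3 arrays differed by 0.48 to 2.10, and the 15 among those lower by 0.50 to 1.21 in size. Other tested probe sets of the 15 higher genes numbered 14 and had a median difference of 0.21, and 5 of them were higher without overlap and 0 lower. For the 15 lower genes there were 22 others with a median of -0.16, of which 4 were lower without overlap and 1 was higher. Of all tested probe sets, 4.04% were higher and 4.05% lower without overlap. Of the 9305 named genes with a tested probe set, 58 had at least 2 without overlap in the same direction, 27 higher and 31 lower. In 18 of these 58 every tested probe set did so. How many of the 9305 genes had 2 or more tested probe sets was not counted, so the 58 have no share beside them. These values describe probe sets of one gene on the same 6 animals and add no animals.

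The largest differences without overlap also included genes of lower intensity. GPR35, a receptor coupled to inhibitory G proteins, read 7.63, 6.92 and 6.69 with estrogen plus progesterone, against 5.31, 4.98 and 6.45 with estrogen (1.50 ± 0.46). COL11A2, a fibrillar collagen chain, read 8.21, 8.27 and 8.35 against 5.51, 7.66 and 7.33 (1.44 ± 0.45), a difference of 0.78 without the first estrogen array, which lay far below the rest. TMEM106B, a lysosomal membrane protein, read 7.20, 5.79 and 6.03 against 5.66, 4.74 and 4.34 (1.42 ± 0.42). SMARCC2, a subunit of SWI/SNF chromatin remodelling complexes, differed by 1.39, FMO4, a flavin monooxygenase, by 1.21 (0.62 without the third estrogen array) and ACTR1A, an actin-related protein of dynactin, by 1.12.

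Downward, FOXP2, a forkhead transcription factor, read 6.60, 6.35 and 4.72 with estrogen plus progesterone, against 7.63, 6.77 and 7.03 with estrogen (-1.25 ± 0.48), with the third combined array far below the others and a difference of -0.67 without it. FGFBP3, which binds fibroblast growth factors, read 8.75, 7.70 and 7.89 against 9.96, 9.09 and 8.90 (-1.20 ± 0.36). HIVEP2, a zinc finger transcription factor, differed by -1.16, SRPX, a secreted sushi-repeat protein, by -1.15, CDC25A, a cell cycle phosphatase, by -1.17, SNX3, a sorting nexin, by -1.17 and ITGA2B, an integrin of platelets, by -1.03. MAMU-DRA, the alpha chain of an MHC class II molecule, read 5.88, 6.25 and 5.10 against 7.21, 6.46 and 6.95 (-1.13 ± 0.39), and its other 2 tested probe sets differed by -0.71 with overlap and by -0.55 without it.

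The placebo and progesterone arrays placed these genes differently. CEP89 averaged 8.04 ± 0.19 with estrogen plus progesterone, 6.81 ± 0.16 with estrogen, 7.59 ± 0.42 with progesterone and 7.63 ± 0.14 with placebo (SD, n = 3 each). GGN averaged 8.16 with the combination, 6.06 with estrogen, 7.67 with progesterone and 7.76 with placebo. In both genes the estrogen arrays had the lowest mean of the 4 groups. UBAP1L averaged 7.40 with the combination, 5.93 with estrogen, 7.47 with progesterone and 6.23 with placebo. Here both groups that received progesterone were high. KCNS3 averaged 6.98 with the combination, 7.75 with estrogen, 7.31 with progesterone and 7.83 with placebo, with both progesterone-treated groups low. DAB2 averaged 7.54 with the combination, 8.23 with estrogen, 7.96 with progesterone and 7.91 with placebo, so that its combined mean was the lowest and its estrogen mean the highest. Since estrogen against placebo shares the estrogen arrays with the comparison made here, these means are given side by side only.

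Whether progesterone acted differently with estrogen than without it was tested as the interaction, the difference between estrogen plus progesterone minus estrogen and progesterone minus placebo. These 2 differences share no array. Limma called 0 of 26383 probe sets (0%, lowest adjusted p = 0.2114), with 1688 at an unadjusted p under 0.05 (6.4%). Progesterone against placebo had 35 calls (0.133%) in the same fit, and its log2 differences had an SD of 0.38, against 0.26 for progesterone added to estrogen. The progesterone arrays also stood apart in EF1A and on the second component, which cannot be told apart from the treatment with progesterone alone. The part of this array difference in these values and in the interaction was not tested. Across probe sets, which are not independent, the 2 sets of differences had a Pearson correlation of 0.021. Of the 2135 probe sets without overlap here, 152 were also without overlap in the same direction in progesterone against placebo and 183 in the opposite direction, beside 4031 without overlap in that comparison (15.3%).

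Several probe sets with the lowest interaction p differed widely under progesterone alone and little when estrogen was present. TM7SF3, a membrane protein with 7 predicted transmembrane segments, read 6.24, 6.79 and 6.36 with estrogen plus progesterone and 6.57, 6.55 and 6.68 with estrogen, but 8.63, 8.25 and 8.26 with progesterone and 6.24, 6.48 and 6.72 with placebo. Its difference was -0.14 with estrogen and 1.90 without, an interaction of -2.04 (limma adjusted p = 0.2114). SFPQ, an RNA-binding protein of paraspeckles, had 8.59, 9.26 and 8.36 with the combination, 8.41, 8.26 and 8.40 with estrogen, 7.79, 7.57 and 7.59 with progesterone and 8.98, 9.11 and 9.10 with placebo. Its difference was 0.38 with estrogen, and 0.12 without the second combined array. Without estrogen it went the opposite way, with all progesterone arrays below all placebo arrays. PPM1A, a phosphatase that acts on SMAD proteins, differed by 0.15 with estrogen and 2.18 without, ANKRD11, a chromatin regulator, by 0.27 and 1.96, USP16, a deubiquitinase of histone H2A, by -0.16 and 1.52, and PPP2R2C, which targets a serine/threonine phosphatase to its substrates, by -0.24 and 3.59. The brightest probe sets of these genes did not show this: progesterone minus placebo was 0.40 for TM7SF3, -0.16 for SFPQ, 0.39 for PPM1A, -0.44 for ANKRD11, 0.05 for USP16 and 0.49 for PPP2R2C.

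A few went in opposite directions. LLGL1 differed by 0.81 with estrogen and by -0.46 without it, an interaction of 1.26 (limma adjusted p = 0.4247). CCDC181, a protein of motile cilia and sperm flagella, read 7.51, 7.05 and 7.29 with estrogen plus progesterone, against 6.91, 6.29 and 6.69 with estrogen, and 6.29, 6.22 and 5.78 with progesterone, against 6.91, 6.78 and 7.13 with placebo. It differed by 0.65 and -0.84, without overlap in either comparison. Among the 15 higher genes of lowest p, progesterone minus placebo was positive in 3, with a median of -0.12 and a range from -0.46 to 1.24. Among the 15 lower genes it was negative in 7, with a median of 0.04 and a range from -0.65 to 0.24.

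**Figure D3:**
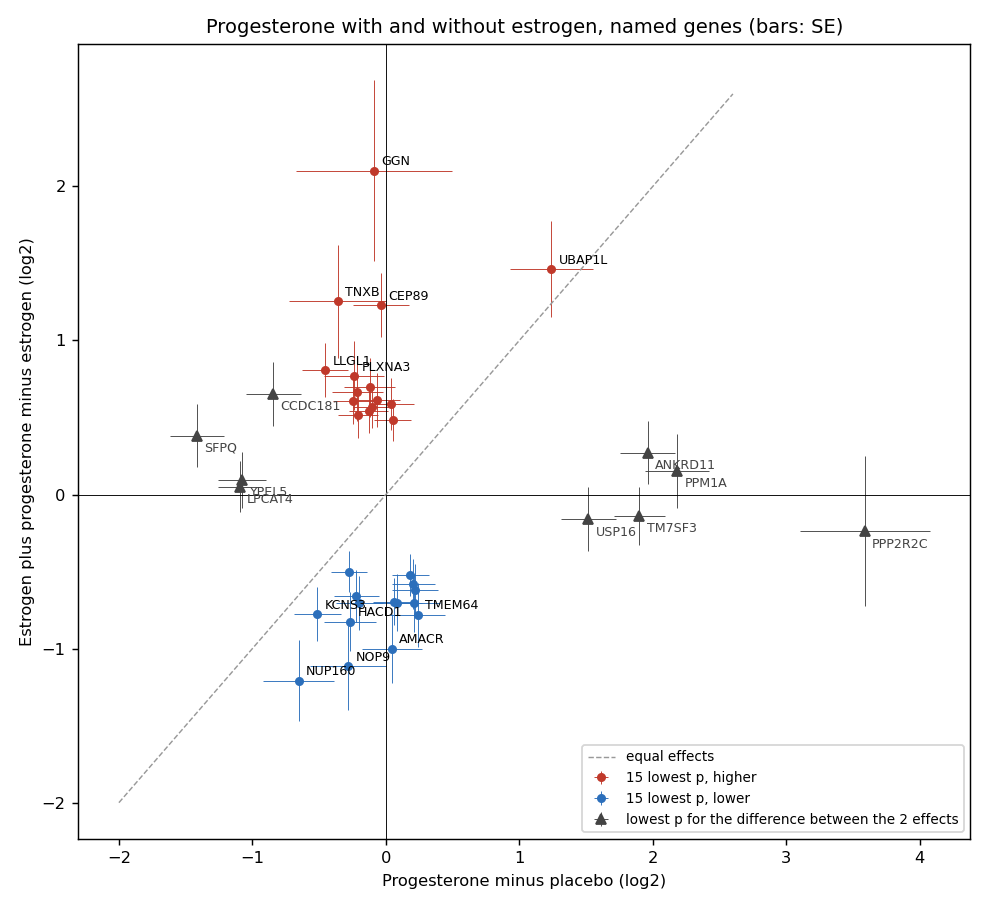
Estrogen plus progesterone minus estrogen (y axis, log2) is set against progesterone minus placebo (x axis, log2) for the 30 genes of lowest p and for the genes of lowest interaction p, with SE bars and a dashed line where both would be equal. UBAP1L lies near the line at 1.46 and 1.24, and TM7SF3, PPM1A and PPP2R2C lie far to the right near a height of 0.

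Gene families were read on the brightest tested probe set of each gene, the one with the highest mean over all 12 arrays. Over all 9305 such genes the median difference was -0.0049, 48.9% were above 0, and 8.91% had groups without overlap (4.07% higher, 4.84% lower). At an unadjusted limma p under 0.05 there were 1.21% higher and 1.61% lower. Of the 64 lists, 62 had at least 3 tested genes, 0 members passed the test in any, and 51 of the 62 medians lay within 0.1 of 0. The sign of the median held in all 19 alternative settings for 17 of the 62 lists. Counts that follow are to be read beside these shares.

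Genes of the serotonin neuron differed in direction. TPH2, the hydroxylase that limits the rate at which neurons make serotonin, read 8.85, 8.51 and 7.53 with estrogen plus progesterone, against 7.22, 7.14 and 7.39 with estrogen. All 3 combined arrays lay above all 3 estrogen arrays, the third only narrowly, and the difference was 1.05 ± 0.65 (95% confidence interval -0.37 to 2.47). The SE was pooled over all groups, and the progesterone arrays, at 7.74, 6.99 and 4.66, spread more widely than these 6. GCH1, which makes the tetrahydrobiopterin cofactor of TPH2, read 8.0029, 8.47 and 7.99 against 8.15, 8.73 and 8.96 (-0.46 ± 0.25). SLC18A2, the vesicular monoamine transporter, read 10.26, 10.04 and 10.01 against 10.22, 10.41 and 10.86 (-0.39 ± 0.22), and overlapped through the first arrays. MAOA, which degrades monoamines, read 9.53, 9.63 and 9.9973 against 9.70, 9.97 and 10.34 (-0.28 ± 0.20), and a dimmer probe set of it was lower without overlap (-0.43). FEV, the transcription factor that specifies serotonin neurons, read 9.54, 9.82 and 9.07 against 9.54, 9.50 and 9.80 (-0.14 ± 0.26). Of the 6 tested serotonin neuron markers, 3 were above 0 and 3 below, with a median of -0.03.

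Among the 5 tested serotonin receptors, HTR1B, a terminal autoreceptor, read 7.29, 6.78 and 6.85 with estrogen plus progesterone, against 6.50, 6.36 and 6.77 with estrogen, without overlap by a narrow gap (0.43 ± 0.26). HTR2A, an excitatory receptor, read 5.99, 6.99 and 7.16 against 6.14, 6.45 and 6.32 (0.41 ± 0.31). Its first combined array was the lowest of the 6 and the other 2 were the highest. HTR7 differed by -0.40 and HTR1E by -0.09, both with overlap.

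In the corticotropin-releasing system, which drives stress responses and reaches the raphe, the median of the 5 tested genes was 0.03 and ran from -0.23 to 0.28 without single arrays. Without overlap, 2 of the 5 were higher and 1 lower, beside 4.07% and 4.84% of all genes. CRH read 10.23, 9.98 and 10.03 with estrogen plus progesterone, against 9.89, 9.56 and 9.91 with estrogen (0.29 ± 0.18). UCN, urocortin, read 7.98, 7.77 and 7.72 against 7.69, 7.57 and 7.27 (0.31 ± 0.38). The receptor CRHR1 read 7.86, 7.47 and 7.84 against 7.97, 7.94 and 7.92 (-0.22 ± 0.28), but a second probe set of CRHR1 went the other way without overlap (0.15). CRHR2, the receptor that urocortins prefer, differed by 0.03, with the first array of both groups high. The binding protein CRHBP differed by -0.22 with overlap.

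Steroid receptor genes overlapped between the groups. GPER1, a membrane estrogen receptor, read 6.33, 6.54 and 6.73 with estrogen plus progesterone, against 5.94, 5.86 and 6.34 with estrogen, with overlap of 1 array (0.49 ± 0.20). These readings lay near the brightness limit for testing (6.31). ESR2 read 7.66, 6.81 and 7.39 against 7.43, 6.90 and 6.99 (0.18 ± 0.31). PGRMC1, a heme-binding membrane protein linked to progesterone responses, was among the brighter genes at 12.26, 12.35 and 12.28 against 12.31, 12.45 and 12.29 (-0.05 ± 0.13). NR3C1, the glucocorticoid receptor, differed by 0.13 and PAQR7, a membrane progestin receptor, by 0.18. Of 13 tested genes known to respond to progestins or corticosteroids, 9 were above 0, with a median of 0.06 that ran from -0.05 to 0.13 without single arrays and was -0.09 without the first arrays. Of the 13, 2 were higher without overlap (15.4%, beside 4.07% of all genes), ZBTB16, a zinc finger factor (0.36, and 0.10 without the first estrogen array), and NFKBIA, the inhibitor of NF-kB (0.33). SGK1 and DUSP1, both responsive to corticosteroids, differed by -0.12 and -0.20.

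**Figure D4:**
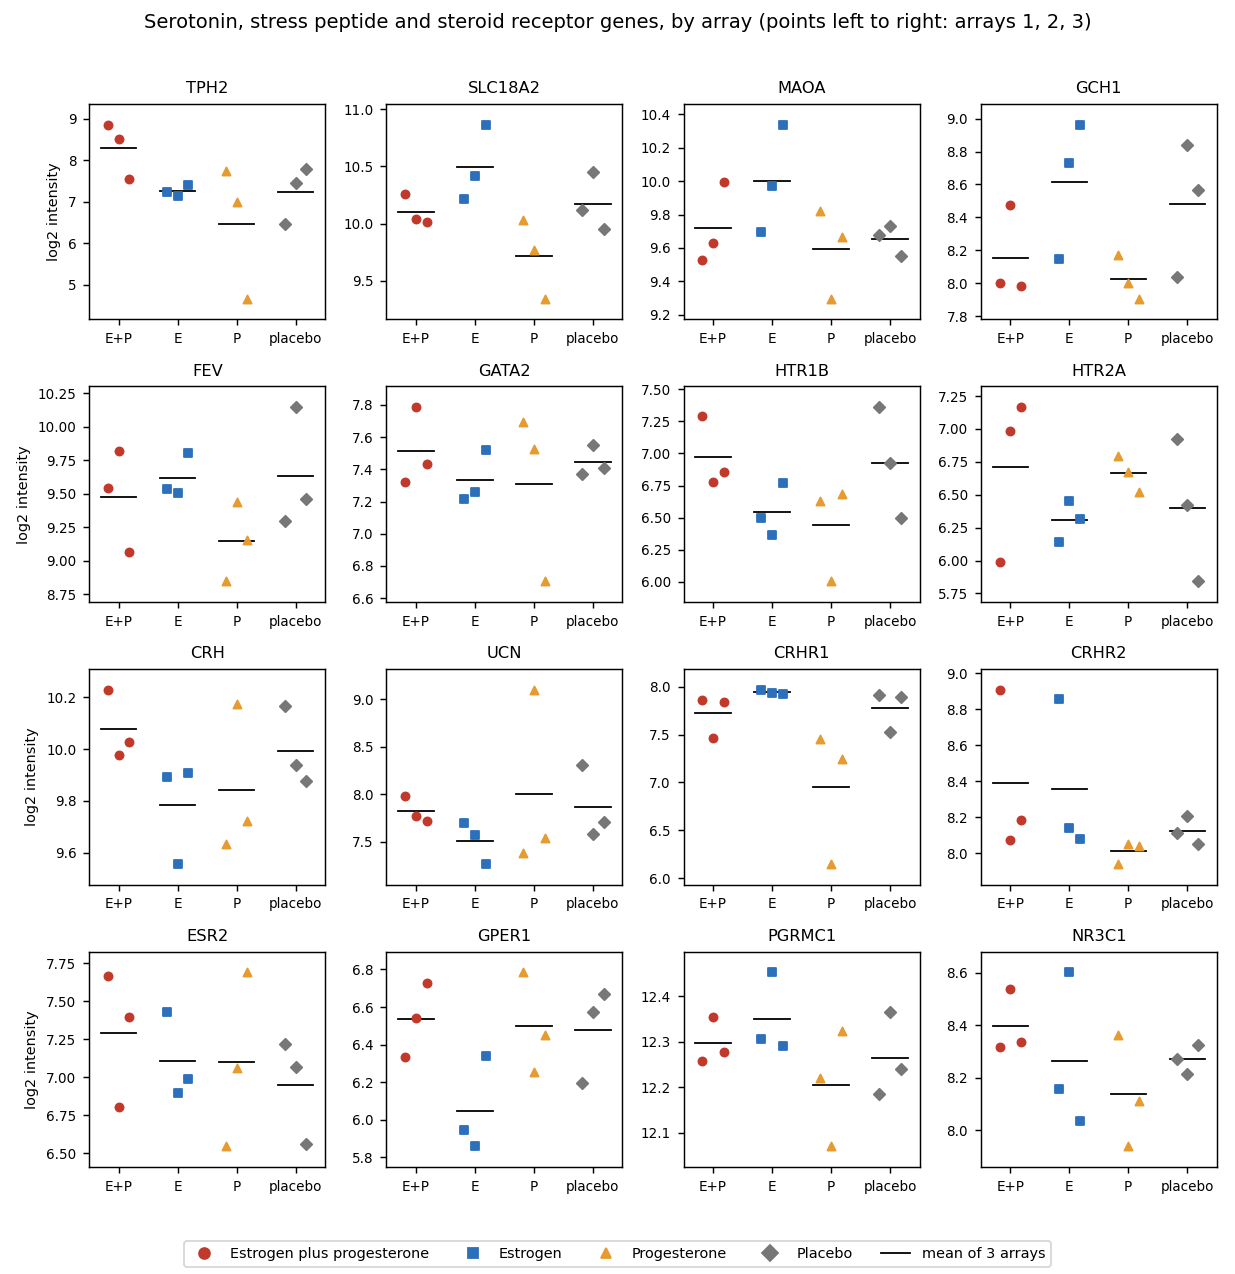
Log2 intensity (y axis) of 16 serotonin, stress peptide and steroid receptor genes is shown for every array of estrogen plus progesterone (E+P), estrogen (E), progesterone (P) and placebo, with the mean of 3 arrays as a line. The combined arrays of TPH2 lie at 7.53 to 8.85, above the estrogen arrays at 7.14 to 7.39, while the progesterone arrays reach down to 4.66.

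Inhibitory receptor subunits lay mostly below 0. Of 9 tested GABA-A and glycine receptor genes, 8 were lower with estrogen plus progesterone, with a median of -0.29 that ranged from -0.33 to -0.17 over the alternatives. In the same-numbered pairs of arrays the median was -0.18, -0.21 and 0.0007, so the third pair did not show it. GABRE, the epsilon subunit of GABA-A receptors, read 8.48, 8.43 and 8.02 with estrogen plus progesterone, against 8.72, 8.76 and 8.79 with estrogen (-0.45 ± 0.24). GLRB, the beta subunit of glycine receptors, read 9.28, 9.41 and 9.11 against 9.73, 9.45 and 9.54 (-0.31 ± 0.20). These 2 were without overlap, and GABRA4 (-0.39) and GABRG3 (-0.29) overlapped. The 7 tested ionotropic glutamate receptors had a median of -0.07, 5 of them below 0.

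Of 16 tested sodium, calcium and HCN channels, 3 were lower without overlap (18.8%) and 0 higher, with a median of -0.01. SCN1A, a sodium channel, read 9.13, 8.90 and 8.71 with estrogen plus progesterone, against 9.21, 9.55 and 9.59 with estrogen (-0.54 ± 0.20), and SCN3A differed by -0.31 without overlap. Among 29 tested potassium channels the median was -0.04, with 3 lower (10.3%) and 1 higher (3.45%) without overlap. The higher one was KCNJ4, an inward rectifier (0.40, and 0.19 without the first estrogen array), and KCNS3 and the inward rectifier KCNJ2 (-0.25) were among the lower. Of 25 synaptic adhesion genes, 18 were below 0 with a median of -0.14, which was -0.03 without the first combined array. NRCAM, an adhesion molecule of axons, read 8.11, 8.16 and 8.02 with estrogen plus progesterone, against 7.85, 7.59 and 6.67 with estrogen (0.73, and 0.38 without the third estrogen array), and SLITRK1, which organizes synapses, was lower without overlap (-0.37).

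Neuropeptide genes lay more often above 0, 6 of 8. CARTPT, a peptide precursor linked to feeding and stress, read 9.83, 8.92 and 8.88 with estrogen plus progesterone, against 8.31, 7.93 and 8.46 with estrogen (0.98 ± 0.72). The nociceptin receptor OPRL1 read 7.52, 7.52 and 7.56 against 7.48, 7.06 and 7.22 (0.28 ± 0.23). NPY differed by 0.38 and the enkephalin precursor PENK by -0.13, both with overlap. SLC6A3, the dopamine transporter, read 8.65, 8.18 and 7.93 against 7.22, 7.58 and 7.31, without overlap (0.89 ± 0.46), while its dimmer probe set overlapped (-0.27). It is 1 of 5 tested catecholamine neuron markers, of which 2 were above 0 and 3 below (median -0.13, lowest -0.92). PHOX2A, the marker of lowest p among these 5, was lower with overlap.

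Nuclear transport genes were more often lower: 24 of 33 tested were below 0, with a median of -0.10 that ranged from -0.16 to -0.08 over the alternatives. Without overlap, 5 were lower (15.2%) and 2 higher (6.06%), beside 4.84% and 4.07% of all genes. TNPO1, an import receptor, read 10.52, 10.66 and 10.71 with estrogen plus progesterone, against 10.77, 11.25 and 10.95 with estrogen (-0.36 ± 0.16). KPNA4, an importin alpha, read 9.25, 9.31 and 9.38 against 9.44, 9.94 and 9.56 (-0.33 ± 0.15). RANGAP1, which activates the GTPase of Ran at the pore, went the other way at 9.42, 9.38 and 9.51 against 8.91, 9.16 and 9.16 (0.36 ± 0.17), on both of its tested probe sets. NUP160 enters this list by its brighter probe set (-0.23), not by that of lowest p.

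Chromatin and RNA genes had medians near 0. Among 59 chromatin modifiers, HDAC2, a histone deacetylase, read 9.0021, 8.98 and 8.81 with estrogen plus progesterone, against 9.24, 9.36 and 9.29 with estrogen (-0.37 ± 0.15). CHD8, a remodeler, differed by -0.43, EP300, an acetyltransferase and steroid receptor coactivator, by -0.41 and KAT5, another acetyltransferase, by 0.50, all without overlap. The splicing repressors PTBP1 and PTBP2 differed by 0.31 and by -0.38. In DNA repair, with 19 of 29 below 0, POLL, a repair polymerase, read 8.71, 8.89 and 8.77 against 8.35, 8.41 and 7.88 (0.57 ± 0.18), and RAD51C, of homologous recombination, read 6.58, 6.89 and 6.82 against 7.26, 7.31 and 7.22 (-0.50 ± 0.16).

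Lipid, lysosome and amino acid genes showed differences in both directions. NPC1, which exports cholesterol from lysosomes, read 9.33, 9.30 and 9.18 with estrogen plus progesterone, against 8.56, 8.79 and 8.97 with estrogen (0.50 ± 0.16). HEXA, a lysosomal hexosaminidase, read 8.37, 7.85 and 7.74 against 7.17, 7.66 and 7.45 (0.56 ± 0.21, and 0.24 without the first arrays). PEX2, of peroxisome assembly, read 7.59, 7.55 and 7.49 against 7.94, 8.15 and 8.12 (-0.53 ± 0.18), and in its list of fatty acid and peroxisomal oxidation 8 of 18 genes were above 0 (median -0.01). Without overlap, 3 of the 18 were lower (16.7%), namely PEX2, AMACR and PHYH (-0.28), another enzyme of branched fatty acids. The 2 higher (11.1%) included HADHB, of mitochondrial fatty acid oxidation (0.33). Branched-chain amino acid breakdown was above 0 in 10 of 14 genes (median 0.13), with 0 without overlap and ALDH6A1, of valine breakdown, at 0.58. Oxidative phosphorylation (46 genes, median -0.01), mitochondrial ribosomal proteins (61 genes, -0.03), heat shock proteins (31 genes, 0.02) and proteasome subunits (24 genes, -0.05) lay near 0.

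**Figure D5:**
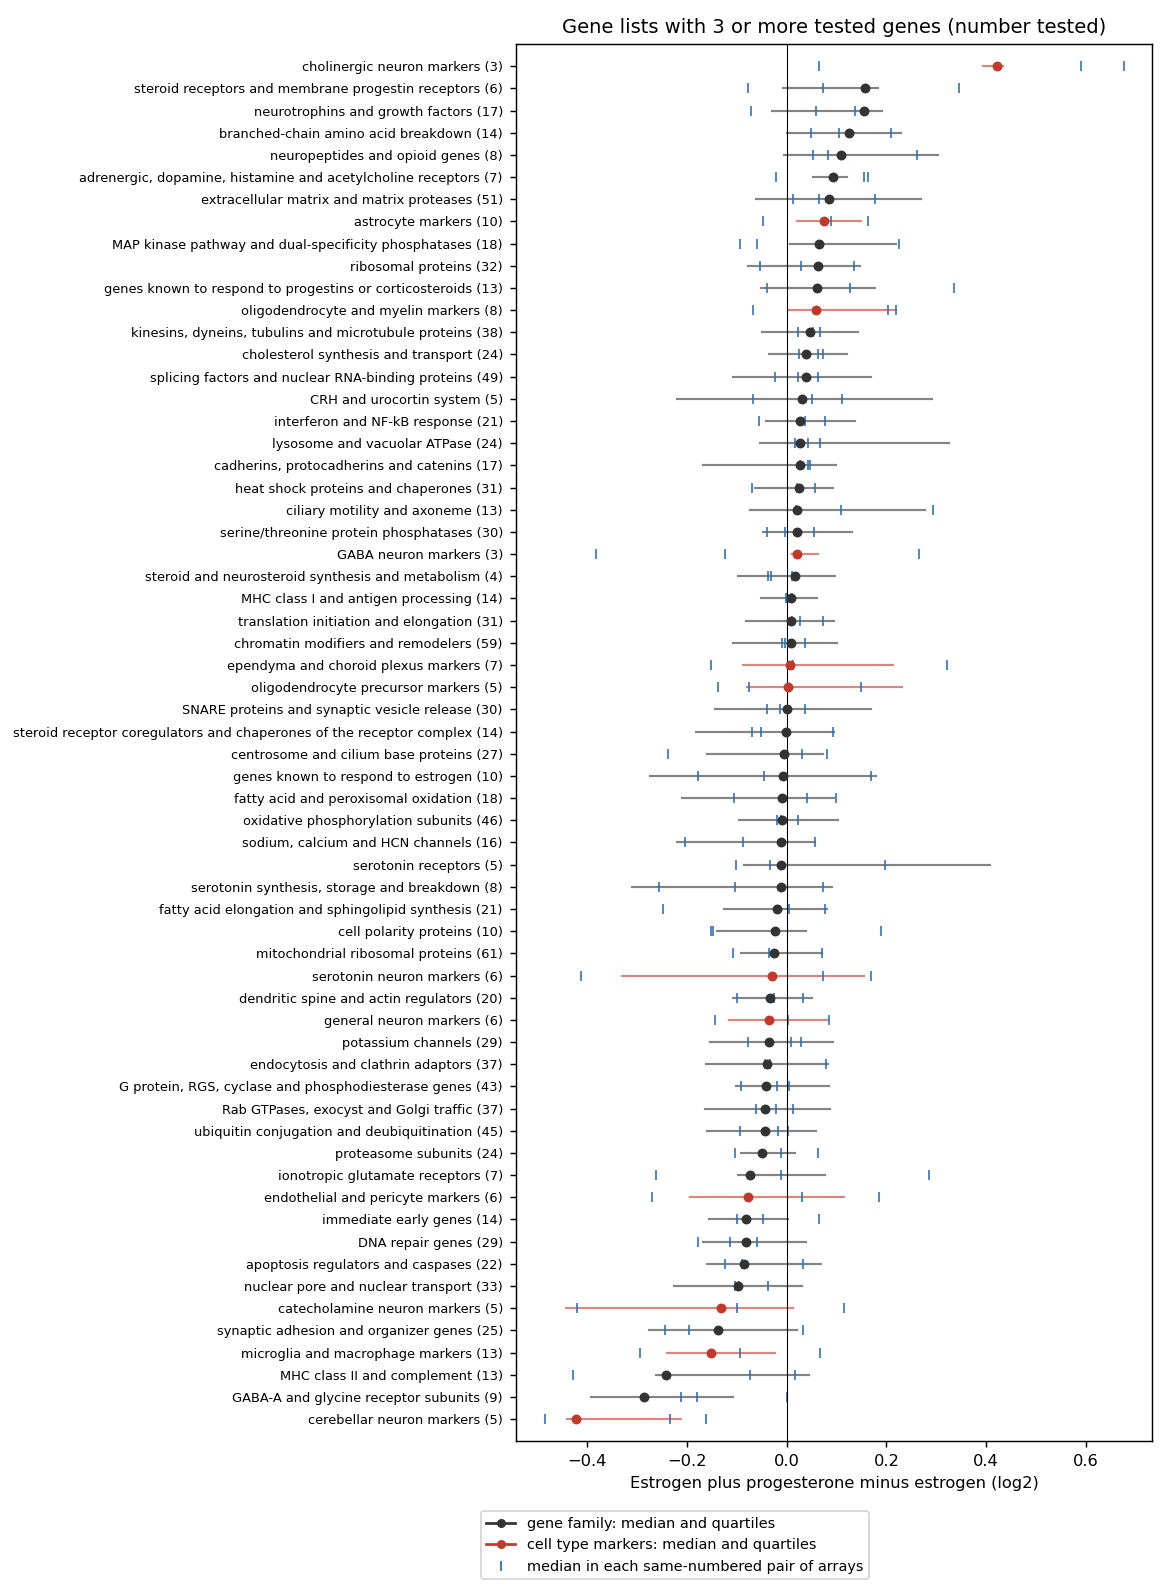
For the 62 gene lists with at least 3 tested genes, the median log2 difference (estrogen plus progesterone minus estrogen, x axis) is drawn as a point with its quartiles as a line, cell type markers in red, and blue ticks give the median in each same-numbered pair of arrays. Medians run from -0.42 for cerebellar markers to 0.42 for cholinergic markers, and 51 lie within 0.1 of 0.

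Markers of cell types were read in the same way. The 3 tested cholinergic markers were above 0 with a median of 0.42: CHAT, which makes acetylcholine, read 7.01, 7.07 and 6.88 with estrogen plus progesterone, against 6.78, 6.49 and 6.60 with estrogen, SLC5A7, the choline transporter, differed by 0.44 without overlap and SLC18A3, the vesicular transporter, by 0.42 with overlap. Cerebellar markers had a median of -0.42 over 5 genes, which turned to 0.10 without the second estrogen array. CBLN3, a granule cell gene, read 7.94, 8.52 and 7.32 against 8.10, 9.45 and 7.55. The log2 of the summed intensity of this list was 9.98 to 10.93 with estrogen plus progesterone and 10.23 to 11.37 with estrogen, and its part in the lower receptor and channel genes was not tested.

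Of 13 microglia and macrophage markers, 10 were below 0 (median -0.15), with a log2 summed intensity of 12.23 to 12.48 with estrogen plus progesterone and 12.42 to 12.55 with estrogen. P2RY12, a receptor of resting microglia, read 9.18, 8.89 and 8.10 against 9.29, 9.12 and 9.24. MHC class II and complement genes were below 0 in 9 of 13 (median -0.24, and -0.06 without the third estrogen array), and C1QA, a complement component that microglia make, was lower without overlap (-0.25 ± 0.23). MAMU-DOA, an MHC class II gene outside this list, went the other way, higher without overlap on both of its tested probe sets. Whether the number of microglia or their RNA content had a part in the lower MAMU-DRA was not tested. Oligodendrocyte markers had a median of 0.06 over 8 genes and astrocyte markers one of 0.08 over 10, with 0 members of either without overlap. The hemoglobin gene HBB read 9.37, 6.66 and 7.65 with estrogen plus progesterone, against 6.51, 7.50 and 6.98 with estrogen, high in the first combined array alone.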

How the data were processed

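RNA of 12 dorsal raphe blocks was hybridised by the authors to Affymetrix rhesus arrays, 1 monkey per array, and groups came from the labels. What was deposited is linear intensity per probe set, with a trimmed mean (2% off each end) of 200.0 in each array. The program that computed it was not given in the sources used here. Of 52865 probe sets, 99 controls were removed. Intensities below the 5th percentile of the deposited values (4.96) were raised to it, and all were transformed to log2 and quantile normalized, since array medians spanned 6.15 to 6.62. The 26383 probe sets at or above the median brightness (log2 6.31) were tested, and of these 15020 had a single named gene in the rhesus gene table. Of 59 reporter probe sets, which name no monkey gene, 2 were also tested, with a highest mean of 6.37. Being tested therefore does not by itself show that a gene was expressed.

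limma 3.58.1 (R 4.3.3) fitted 1 mean per group over all 12 arrays, with two-sided tests, Benjamini-Hochberg adjustment over all tested probe sets and a threshold of 0.05. An exact permutation test of 3 arrays against 3 cannot go below p = 0.1. Same-numbered arrays deviated together from their group means (correlations 0.507, 0.292 and 0.142, all above 0.1, though the unlike-numbered pairs 2 with 3 and 3 with 2 gave 0.267 and 0.25), so the replicate number was also fitted as a block. No label names a shared batch or says more than that each array is a separate monkey's, so p-values measure the spread between these samples. Named genes were, among those whose groups did not overlap, the 15 of lowest p and the 10 of largest difference in each direction and up to 10 with several such probe sets, together with the 5 of lowest interaction p in each direction, up to 4 members of each list by p, and a fixed set of serotonin, steroid and stress genes. GATA3, MAMU-AG and genes called under an alternative were chosen after their values were seen. Members and lists were chosen with earlier results of these data known. The steps were tested on simulated data. Plots used Python 3.11.15 and matplotlib 3.10.9.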

Additional observations from a re-analysis of the deposited data

How the results depend on the processing

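Estrogen plus progesterone against estrogen gave 0 calls in limma under 18 of 19 alternatives, and 0 to 1 when single arrays were left out: without the second estrogen array ITIH5, an extracellular inter-alpha-trypsin inhibitor chain, passed (3.02, adjusted p = 0.0235, against 1.99 with all arrays). With the replicate number as a block, calls stayed at 0 in 6 arrays (1551 at an unadjusted p under 0.05) and in 12 (807), and those of the interaction stayed at 0 in 12. The interaction gave 0 calls except without single arrays (0 to 4): 2 without the first progesterone array, GRID1 (2.87, adjusted p = 0.00743) and an unnamed probe set, and 4 without the third placebo array, CSPP1, LUC7L3, MGAT4C (-3.18, -2.28 and -2.29, adjusted p = 0.0463 each) and an unnamed probe set. The share of probe sets without overlap was 8.09% of those tested, 5.58% with array medians aligned in place of quantile normalization, 14.8% to 24.9% without single arrays, and 39.4% without the first arrays of estrogen plus progesterone, estrogen and placebo, where 2 arrays stand against 2. Fewer arrays overlap less by construction. The count at an unadjusted p under 0.05 was 575 with medians aligned, 1827 with array weights, 1506 without the first estrogen array and 1857 in the 4 arrays left without both first arrays, a setting chosen after seeing the data. The cause was not tested for the calls or for these counts. Of 62 list medians, 17 kept their sign in all 19 alternatives, and cholinergic markers did in the 18 that gave a value.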

Other observations

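The largest log2 difference of a named probe set lay in MAMU-AG, an MHC class I gene of the rhesus monkey. It read 10.31, 9.63 and 9.03 with estrogen plus progesterone, against 5.26, 3.43 and 9.70 with estrogen (3.52 ± 1.20), and 9.35 to 10.47 with progesterone, against 8.08 to 10.01 with placebo. The third estrogen array lay within the range of the combined arrays, while the first 2 estrogen arrays stood far below all others. A second tested probe set of MAMU-AG differed by 0.29. MHC genes vary in sequence between individual monkeys, and the part of such variation was not tested. ITIH5 had a similar shape, with 7.38, 7.80 and 8.12 with estrogen plus progesterone, against 4.9992, 7.84 and 4.49 with estrogen, and 7.64 or more in the other 6 arrays.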
